A study of Mus musculus with 8 samples.

Results

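The sites described here are 558 of the 4919 CHD4 peaks of proliferating iMOPs, a mouse line of immortalized otic progenitors. Each overlapped by at least 1 bp a p300 peak of proliferating iMOPs and a p300 peak of iMOP-derived neurons, and none overlapped an H3K4me3 peak of proliferating iMOPs. They were selected on these 4 lists, so that CHD4 and p300 in proliferating iMOPs, p300 in neurons and the lack of proliferating H3K4me3 are properties of the choice and not results. They are set against 992 sites chosen in the same way but with no neuron p300 peak, against 162 CHD4 sites with p300 in both states and H3K4me3 in proliferating iMOPs, and against all 4919 peaks. Libraries were made by CUT&Tag (a transposase tethered to an antibody cuts the DNA around the bound protein), with antibodies to CHD4, p300, H3K4me3 and IgG in 2 states. The iMOP-derived neurons were kept in Neurobasal medium with N21, L-glutamine and 1 µM K03861, and the proliferating iMOPs in DMEM/F12 with B27, carbenicillin and 20 ng/ml bFGF. Both states are labelled wild-type and untreated and come from 1 immortalized line. Each of the 8 groups is 1 library of 500000 cells, so no difference has a replicate check and no test was possible between the states. Peak lists of 6 libraries were used. The 2 libraries made with IgG are not analysed here. The lists hold no read counts, so depth is unknown. Shares carry exact (Clopper-Pearson) 95% intervals and medians carry order-statistic 95% intervals, and both cover counting error only.

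CHD4 is a helicase-like ATPase that slides nucleosomes and works inside NuRD, a complex that also removes acetyl groups from histones. The acetyltransferase p300 adds such groups, and it gathers at enhancers and at some promoters. H3K4me3 marks the starts of active genes. A site with p300 but no H3K4me3 may be an enhancer, but enhancer activity was not measured here. In the inner ear, progenitors of the otic vesicle leave the cell cycle and give rise to the neurons of the auditory and vestibular ganglia.

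The cell labels could be checked only through H3K4me3 within 1 kb of gene starts, since no RNA was measured. Of 18 otic progenitor factors, 2 had this mark in neurons (Sox2 and Sox9) and 9 in proliferating iMOPs, and of 24 neuronal cytoskeleton and axon genes, 11 had it in neurons and 10 in proliferating iMOPs. Of 26 proneural and neuronal transcription factors, 7 had it in neurons and 8 in proliferating iMOPs. Marker lists of other cell types had 1 of 18 hair cell genes in each state, 3 and 5 of 16 glial genes in neurons and in proliferating iMOPs, 5 of 16 mesenchyme genes in each state, and 0 and 1 of 14 blood and endothelium genes. The neuron H3K4me3 list is shorter, with 5625 peaks against 7472 in proliferating iMOPs. The share of all coding genes with the mark is not given here, so these counts do not settle the cell labels.

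Among the sites were 5 that covered a microRNA hairpin, 6 hairpins in all. MicroRNAs are short RNAs that repress messenger RNAs paired with their seed. These 5 were 0.896% (interval 0.292 to 2.08) of the 558 sites, against 0.996% of all CHD4 peaks, so hairpins were not more frequent here. The mature sequences below are those of the sites with the best known microRNAs, from RefSeq (GRCm38.p6), 5′ to 3′, with the seed, bases 2 to 8, in capitals. They are shown because let-7c and let-7b share the seed GAGGUAG and lie under a single site, and because miR-26a has another seed.
let-7c-5p (chr15:85706616-85706637, plus strand): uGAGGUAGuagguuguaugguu
let-7b-5p (chr15:85707325-85707346, plus strand): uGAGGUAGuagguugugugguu
miR-26a-5p (chr9:119031811-119031832, plus strand): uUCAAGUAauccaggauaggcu

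The let-7 site ran from 85696751 to 85714550 on chromosome 15 (mm10, as are all coordinates) and was 17800 bp wide in the proliferating CHD4 list. Ranked by total signal, it stood at the 94.5th percentile in the neuron CHD4 list, the 96.6th in the proliferating CHD4 list, the 91.5th in the neuron p300 list and the 97.9th in the proliferating p300 list. A percentile of 100 is the peak with the highest total signal, which grows with width as well as height, and percentiles of different lists do not measure a change. Both hairpins lie in Lncppara, a non-coding gene also listed as Mirlet7bhg, which runs from 85703773 to 85707524. The start of that gene was 1048 bp from the CHD4 maximum of the site, the 50-bp position with the highest signal. No H3K4me3 peak of either state overlapped the site. Upstream of it lay the H3K4me3 peak with the highest total signal of each list, 32650 bp wide in neurons and 36550 bp wide in proliferating iMOPs. On a scale that counts from the let-7c-2 hairpin, the neuron peak ended at -15.0 kb and the proliferating peak at -18.6 kb.

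**Figure D1:**
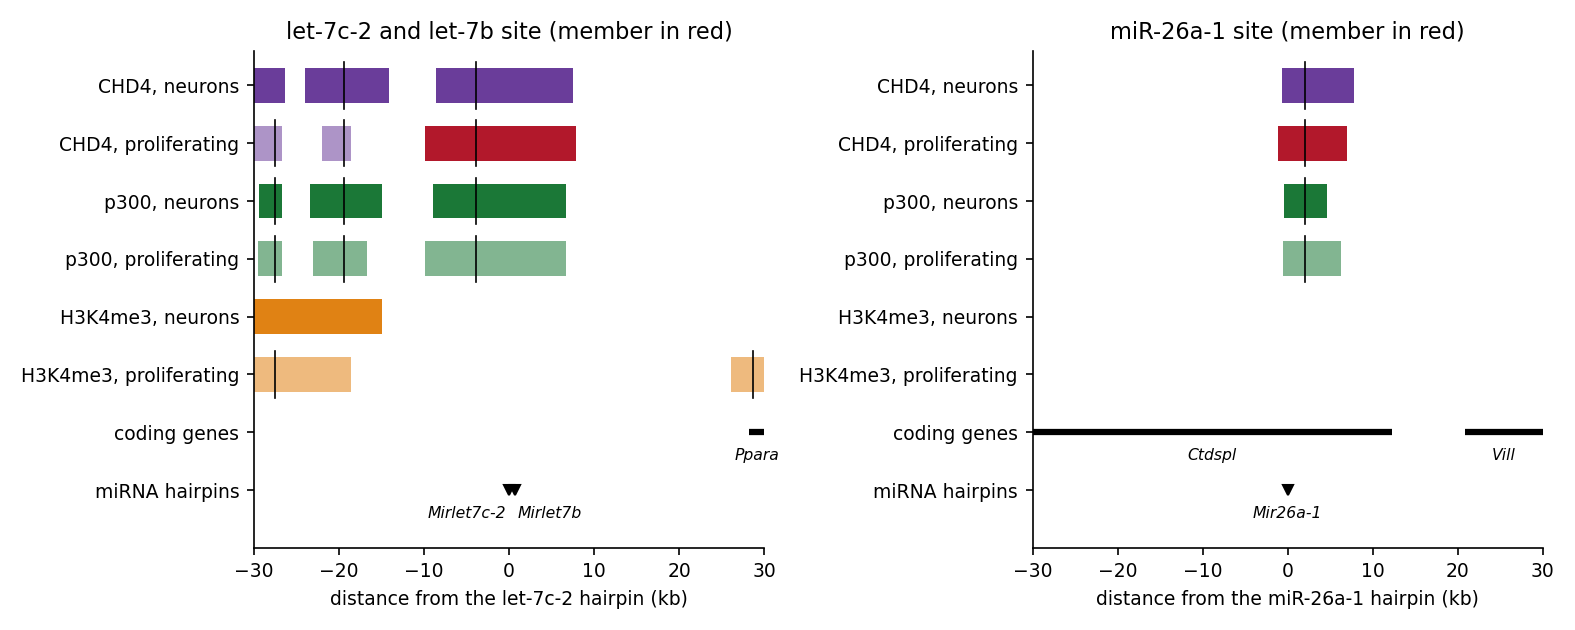
Peaks of the 6 lists (bars; ticks mark the highest signal) around the let-7c-2 and let-7b hairpins (left) and the miR-26a-1 hairpin (right), by distance in kb from the let-7c-2 or the miR-26a-1 hairpin; member sites are red. At both sites the CHD4 and p300 bars of neurons and of proliferating iMOPs cover the hairpins, and no H3K4me3 bar does.

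The site over miR-26a-1, from 119030651 to 119038850 on chromosome 9, lies within Ctdspl, a phosphatase gene that hosts this microRNA. Its CHD4 peak was 8500 bp wide in neurons and 8200 bp wide in proliferating iMOPs. Its percentiles were 85.7 in the neuron CHD4 list, 97.8 in the proliferating CHD4 list, 66.1 in the neuron p300 list and 97.9 in the proliferating p300 list. The other 3 sites covered Mir7662 inside Tspan15, Mir3080 inside Tcf20 and the hairpin of miR-9768 inside Mcf2l. At Mir3080 the neuron CHD4 peak was 55450 bp wide and at the 99.98th percentile of its list, whereas the proliferating CHD4 peak was 5500 bp wide and at the 10.4th.

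Although the sites were chosen for the lack of H3K4me3, 54 of the 558 covered 68 annotated starts of 59 genes in the RefSeq promoter table. A start was also covered by 99 of the 992 distal sites without neuron p300 and by 37.5% of all CHD4 peaks. The 59 genes under the sites were 43 long non-coding RNA genes and 16 protein-coding genes. The promoters of the 3 coding genes with a start nearest to the CHD4 maximum are printed with that of Lncppara, from 250 bases before to 50 after the start (RefSeq, GRCm38.p6, 5′ to 3′). CpG dinucleotides are in capitals, because H3K4me3 promoters are usually rich in them.
Celf3 (chr3:94484077-94484376, plus strand): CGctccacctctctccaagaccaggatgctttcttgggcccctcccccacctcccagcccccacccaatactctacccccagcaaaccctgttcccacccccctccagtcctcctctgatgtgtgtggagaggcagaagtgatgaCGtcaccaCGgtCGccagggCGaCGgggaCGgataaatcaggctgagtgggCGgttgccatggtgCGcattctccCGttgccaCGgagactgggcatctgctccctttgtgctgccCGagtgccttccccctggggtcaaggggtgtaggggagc
Lrp8 (chr4:107830703-107831002, plus strand): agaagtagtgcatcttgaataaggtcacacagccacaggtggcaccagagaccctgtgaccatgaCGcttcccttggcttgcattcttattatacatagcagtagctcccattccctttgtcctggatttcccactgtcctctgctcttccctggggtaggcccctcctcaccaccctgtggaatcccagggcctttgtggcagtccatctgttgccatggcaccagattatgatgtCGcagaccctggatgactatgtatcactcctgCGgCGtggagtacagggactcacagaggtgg
Cibar2 (chr8:120177420-120177719, minus strand): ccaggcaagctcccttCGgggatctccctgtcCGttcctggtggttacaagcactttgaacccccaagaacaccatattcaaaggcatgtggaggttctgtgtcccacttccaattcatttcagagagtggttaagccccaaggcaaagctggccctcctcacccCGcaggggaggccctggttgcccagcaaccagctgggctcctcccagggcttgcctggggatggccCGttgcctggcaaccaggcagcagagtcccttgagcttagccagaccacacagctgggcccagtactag
Lncppara (chr15:85703523-85703822, plus strand): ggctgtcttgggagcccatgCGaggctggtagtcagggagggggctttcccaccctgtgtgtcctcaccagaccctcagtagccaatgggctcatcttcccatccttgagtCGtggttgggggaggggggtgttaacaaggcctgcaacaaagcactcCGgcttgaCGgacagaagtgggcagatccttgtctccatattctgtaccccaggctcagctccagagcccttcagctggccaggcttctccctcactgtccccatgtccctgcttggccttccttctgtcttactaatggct

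The Celf3 start was 2 bp from the CHD4 maximum, that of Lrp8 22 bp and that of Cibar2 56 bp. Celf3 encodes a neuronal RNA-binding protein, Lrp8 a receptor for reelin, and Cibar2 a BAR-domain protein. The printed promoters hold 12 CpG at Celf3 and 4 at each of Lrp8, Cibar2 and Lncppara. As a ratio of the CpG count to the count expected from the C and G content, this was 0.40 for Celf3, 0.18 for Lrp8, 0.15 for Cibar2 and 0.16 for Lncppara. The Lrp8 start lay 28753 bp inside the gene from its annotated 5′ end and the Celf3 start 6042 bp inside, whereas the Cibar2 start was 17 bp from that end.

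Promoters of coding genes under the sites had a lower CpG ratio than those under the other classes. Their median ratio was 0.24 (0.18 to 0.37, 23 starts of 16 genes), against 0.53 (0.42 to 0.58, 61 starts) under distal sites without neuron p300. It was 0.77 (0.73 to 0.82, 145 starts) under the H3K4me3 sites and 0.57 (0.56 to 0.58) over all 21263 coding starts of the table. Starts of a gene can share bases, and with 1 mean value a gene the medians were 0.24 (0.17 to 0.30, 16 genes) under the sites and 0.54 (0.42 to 0.60, 55 genes) under those without neuron p300. Of the 23 starts, 13 (56.5%, 34.5 to 76.8), in 8 genes, lay more than 1 kb inside their gene, among them starts of Kcnab2, a potassium channel subunit gene, and of Mcf2l. The share was 18.03% (9.36 to 29.98) of starts under distal sites without neuron p300 and 19.2% (18.7 to 19.7) of all coding starts. With each gene counted once, 8 of 16 genes (50%, 24.7 to 75.3) under the sites and 10 of 55 (18.2%, 9.08 to 30.9) under those without neuron p300 had such a start, and these intervals overlapped. The intervals of the CpG ratio in these 2 classes lay apart per start and per gene, and no test was run. The part of internal starts in this contrast was not tested. The contrasts of the CpG ratio with the H3K4me3 sites and with all coding starts may follow in part from leaving out H3K4me3.

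Both strands of these 300-base promoters were searched for CANNTG (the E-box), ACAANG (SOX), GGAATG (TEAD) and TGANTCA (AP-1), where matches of different motifs may overlap. CANNTG was present in 87.0% (66.4 to 97.2) of the 23 coding promoters, against 69.0% of all coding promoters. ACAANG was present in 52.2% (30.6 to 73.2) against 38.1%, GGAATG in 17.4% (4.95 to 38.8) against 13.6%, and TGANTCA in 4.35% (0.110 to 21.9) against 6.99%. The share of all coding promoters lay within the interval for each of the 4 motifs. Coding promoters under all CHD4 peaks held CANNTG in 59.0% and ACAANG in 30.5%, both below the intervals of the sites. Their shares for GGAATG and TGANTCA, 10.3% and 3.41%, lay within them. Under distal sites without neuron p300, CANNTG was in 70.5% and ACAANG in 42.6%. Over the starts of all genes, CANNTG was in 83.8% (72.9 to 91.6) of 68 promoters under the sites, against 72.3% of all promoters. Promoters of a gene can share bases, and no test was run.

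Most of the sites lay more than 10 kb from a coding gene start. The median distance was 29482 bp (26870 to 33203) for the 557 sites on chromosomes with annotated genes, against 27962 bp (25502 to 31248) for the distal sites without neuron p300 and 6148 bp for all CHD4 peaks. Within 1 kb of a start lay 38 sites (6.82%, 4.87 to 9.24), against 8.74% (7.04 to 10.7) of those without neuron p300 and 41.9% of all CHD4 peaks. Elsewhere in a coding gene lay 264 sites (47.4%, 43.2 to 51.6), against 43.2% (40.0 to 46.3) and 28.9%. Outside coding genes lay 255 sites (45.8%, 41.6 to 50.02), against 48.1% (44.9 to 51.3) and 29.2%. The intervals of the 2 distal classes overlapped for all 3 places, and the contrast with all peaks follows in part from leaving out H3K4me3. Between 10 and 50 kb from a start lay 44.3% (40.2 to 48.6) of the sites and 37.3% (34.3 to 40.4) of those without neuron p300. A start here is a listed start or the 5′ end of the gene where the strand is known, and either end for the other 4395 of 21887 coding genes.

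**Figure D2:**
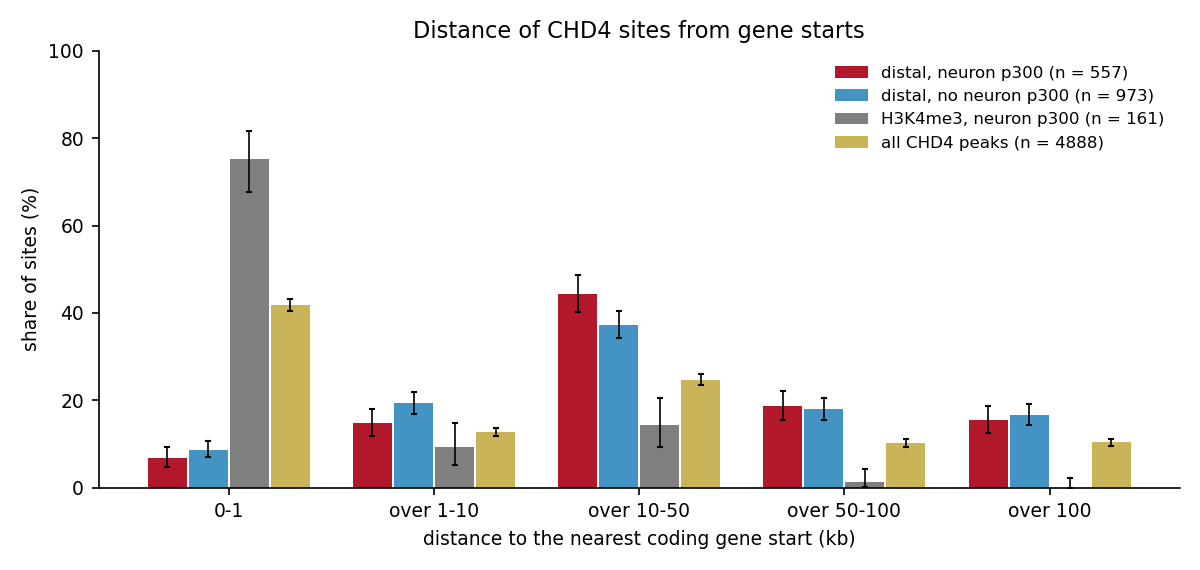
Share of sites (%) by distance in kb from the nearest coding gene start, for the sites with neuron p300, the distal sites without it, the H3K4me3 sites with neuron p300 and all proliferating CHD4 peaks; error bars are exact 95% intervals. The first bin holds 6.82% of the sites with neuron p300 and 41.9% of all CHD4 peaks, and the bin over 10 to 50 kb holds the highest share of the sites with neuron p300, 44.3%.

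In the proliferating CHD4 list the sites ranked high, which is a description since that list and the p300 lists chose them. Their median percentile was 86.5 (85.0 to 87.9), against 66.2 (64.6 to 67.9) for the distal sites without neuron p300 and 90.7 (88.4 to 92.7) for the H3K4me3 sites. The lowest of the 558 stood at the 2.99th percentile and the highest at the 99.98th. Above the 90th percentile of the list lay 40.5% (36.4 to 44.7) of them and 9.07% (7.36 to 11.03) of the sites without neuron p300. Of the distal CHD4-p300 sites up to the 25th percentile of the list, 6.25% (2.06 to 14.0) had neuron p300. The share was 15.6% (10.96 to 21.2) from the 25th to the 50th percentile, 21.6% (18.1 to 25.4) from the 50th to the 75th, 42.8% (38.0 to 47.6) from the 75th to the 90th and 71.5% (66.2 to 76.4) above. In all it was 36.0% (33.6 to 38.4) of 1550 distal sites. With the proliferating p300 list trimmed to the 965 strongest peaks, the length of the neuron list, it was 59.1% (54.9 to 63.2) of 555. The sites also ranked higher in the proliferating p300 list. Their median percentile there was 75.9 (73.1 to 78.9), against 44.8 (41.7 to 47.2) for those without neuron p300. These medians were 92.5 and 85.2 above the 90th CHD4 percentile, and 71.8 and 62.9 from the 75th to the 90th. They were 42.1 and 38.6 from the 50th to the 75th, but 15.1 and 25.7 from the 25th to the 50th. Up to the 25th they were 22.5 and 28.3. The part of p300 rank in the rise was not tested.

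**Figure D3:**
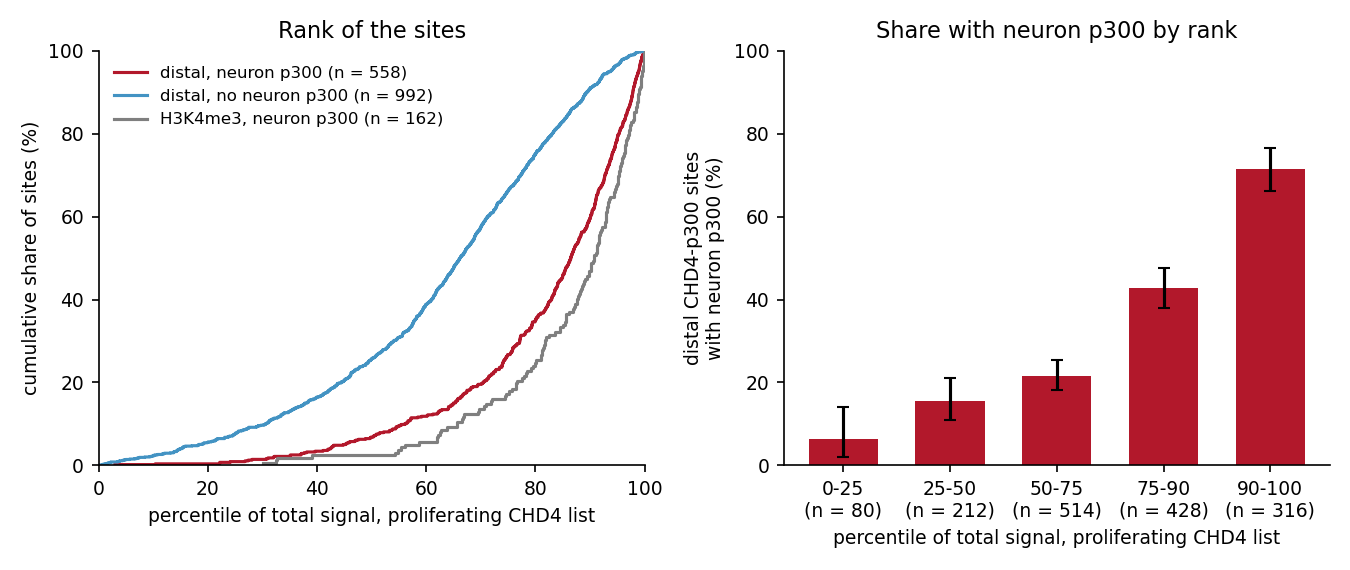
Left, cumulative share (%) of sites by percentile of total signal in the proliferating CHD4 list for 3 site classes. Right, share (%) of distal CHD4-p300 sites with neuron p300 by the same percentile, with exact 95% intervals; the share is 6.25% up to the 25th percentile and 71.5% above the 90th.

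In the neuron p300 list itself the sites took up the larger part. Of its 965 peaks, 564 (58.4%) overlapped a site, 182 others overlapped proliferating H3K4me3, 102 others lay on proliferating CHD4 with neither proliferating p300 nor H3K4me3, and 109 overlapped none of the 3 proliferating lists. Over the 558 sites, the median percentile of the overlapping peak in that list was 58.7 (55.1 to 62.4). A site overlapped 1 neuron p300 peak in 548 cases and 2 in 10 cases, and 4 neuron p300 peaks spanned 2 sites each. The length shared with neuron p300 ran from 1200 to 15550 bp with a median of 3500 bp, and the length shared with proliferating p300 from 1050 to 25750 bp with a median of 3400 bp. The 3 shortest overlaps with neuron p300, 1200 bp each, were at sites whose nearest genes are Id2, Gm11232 and Dll1. Just outside the rule were distal sites near Foxo6, Ptma and Echdc3, whose gaps to a neuron p300 peak were 100, 400 and 400 bp.

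CHD4 was listed in neurons at 556 of the 558 sites (99.6%, 98.7 to 99.96), against 70.2% (67.2 to 73.0) of the distal sites without neuron p300 and 66.2% of all CHD4 peaks. This share was close to fixed by the choice of sites, since 962 of the 965 neuron p300 peaks (99.7%) overlapped a neuron CHD4 peak. H3K4me3 of neurons overlapped 2 sites (0.358%, 0.0434 to 1.29), against 0.403% of those without neuron p300 and 33.9% of all CHD4 peaks, and this share too was limited by the choice of sites without proliferating H3K4me3. The 2 sites lay on chromosome 18. One, at the 73.4th percentile, ran from 35836701 to 35843150 in Cxxc5, which encodes a CXXC zinc finger protein, and the other, at the 42.9th, from 82698851 to 82702050 near Zfp236. Both overlapped CHD4 and p300 peaks of neurons.

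The CHD4 peak over a site was usually wider in neurons. Its median width was 6850 bp (6550 to 7550) in neurons and 4300 bp (4150 to 4500) in proliferating iMOPs. It was wider in neurons at 478 of 556 sites (86.0%, 82.8 to 88.8), against 78.0% (74.8 to 81.0) of the distal sites without neuron p300 that had neuron CHD4 and 82.0% of all CHD4 peaks that had it. The median ratio of neuron to proliferating width was 1.49 (1.41 to 1.58) at the sites, 1.32 (1.27 to 1.40) at those without neuron p300 and 1.40 (1.38 to 1.44) over all CHD4 peaks with neuron CHD4. The neuron CHD4 list as a whole has wider peaks, with a median of 5200 bp against 3400 bp in the proliferating list. The 2 distal classes differed in rank as well. Among sites above the 90th percentile of the proliferating CHD4 list the median ratio was 1.28 at the sites and 1.07 at those without neuron p300, and from the 50th to the 75th percentile 1.84 and 1.35. Above the 90th percentile, the median percentile in the neuron CHD4 list was 93.6 at the sites and 78.7 at those without neuron p300. A wider peak gives a higher chance of overlap, and the part of width in these contrasts was not tested. Wholly inside a single neuron CHD4 peak lay 392 sites, and 17 neuron CHD4 peaks spanned 2 or more sites, at most 3. A neuron CHD4 peak can also span proliferating CHD4 peaks that are not sites, as in Gse1. Each ratio sets a single proliferating peak against the whole neuron peak.

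**Figure D4:**
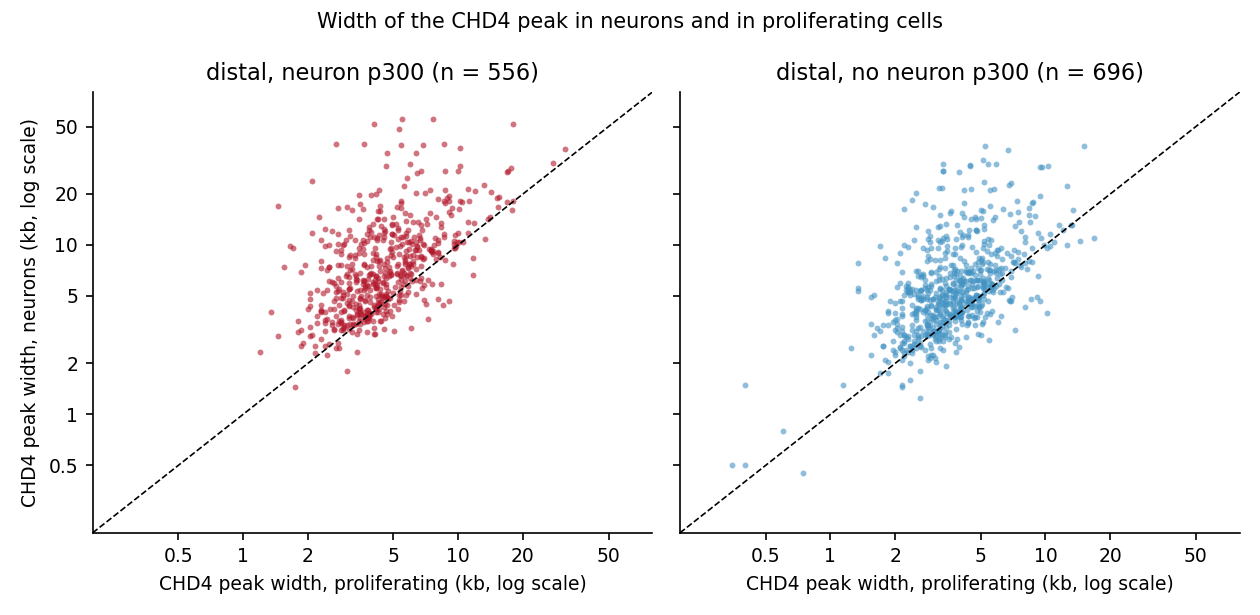
Width in kb (log scales) of the CHD4 peak in neurons against that in proliferating iMOPs for the distal sites with neuron p300 (left) and without it (right); each point is a site with CHD4 in both states and the dashed line marks equal width. At the sites with neuron p300, 86.0% of points lie above the line.

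The positions of highest signal lay close together in the 4 CHD4 and p300 lists. The CHD4 maximum of proliferating iMOPs lay within 500 bp of the p300 maximum of the same state at 516 of the 558 sites (92.5%, 89.96 to 94.5), against 91.6% of the distal sites without neuron p300 and 91.0% of all CHD4 peaks with p300. It lay within 500 bp of the neuron p300 maximum at 89.96% (87.2 to 92.3) of the sites and of the neuron CHD4 maximum at 87.8% (84.8 to 90.4). Over all CHD4 peaks that overlapped the neuron list in question, the shares were 86.5% (84.0 to 88.7) for neuron p300 and 83.4% (82.1 to 84.7) for neuron CHD4. The group with neuron p300 holds 837 peaks, and the 558 sites are among them. For neuron CHD4 at distal sites without neuron p300 the share was 84.2% (81.3 to 86.8). At 456 sites the other 3 maxima were all within 500 bp of the proliferating CHD4 maximum, and at 125 sites all 4 maxima fell in the same 50 bp. At the H3K4me3 sites the proliferating CHD4 maximum was within 500 bp of the neuron p300 maximum in 75.9% (68.6 to 82.3) of cases.

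The strongest sites in the proliferating CHD4 list lay in or near Slc6a17, Gse1, Acot7, Gm45988, Tut7, Rdm1 and Rybp. The first, the second peak of the whole list, ran from 107473801 to 107482400 on chromosome 3 in Slc6a17, an amino acid transporter of synaptic vesicles. It stood at the 99.4th percentile of the neuron CHD4 list and the 93.6th of the neuron p300 list. A site of 31500 bp on chromosome 4, from 152261701 to 152293200, was the widest. Its nearest gene by rule is Acot7, an acyl-CoA thioesterase gene, and it overlapped Hes3, which encodes a repressor of the Hes family, and starts of Gpr153. The CHD4 peak there was 36700 bp wide in neurons. Its 2 Gpr153 promoters were rich in CpG, with ratios of 0.79 and 0.85, and carried no H3K4me3 in either list. A site on chromosome 13, from 59924601 to 59931250, had as its nearest coding gene Tut7, whose product adds uridines to let-7 precursors, with its start 101432 bp from the site. It stood at the 96.3rd percentile of the neuron CHD4 list, the 99.7th of the proliferating CHD4 list, the 97.7th of the neuron p300 list and the 99.8th of the proliferating p300 list.

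The remaining sites named by strength or width were near Gm45988, Rdm1, Rybp, Tmem104 and Elfn2. The site near Rybp, which encodes a Polycomb complex subunit, ran from 100194601 to 100208850 on chromosome 6 and ranked 11th in the neuron p300 list and 22nd in the proliferating CHD4 list. The site near Gm45988, from 64073351 to 64090250 on chromosome 7, had a neuron p300 peak at the 44.7th percentile and the second strongest p300 peak of the proliferating list. The site in Tmem104 was 27600 bp wide and that in Elfn2, a gene for a synaptic adhesion protein, 18000 bp.

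Ranked by neuron p300 signal, the first sites lay in or near Celf4, Slit1, BC034090 and Ccdc167. A neuron p300 peak of 9400 bp, the third strongest of its list, covered 2 sites in Celf4, which encodes a neuronal RNA-binding protein, on chromosome 18 from 25654901 to 25661000 and from 25661801 to 25664750. These sites stood at the 99.2nd and 90.4th percentiles of the proliferating CHD4 list. The fifth strongest neuron p300 peak lay at a site in Slit1, and the sixth at a site on chromosome 1 near BC034090, where CHD4 was 38850 bp wide in neurons and 6900 bp in proliferating iMOPs. The seventh lay in Ccdc167 on chromosome 17, from 29705951 to 29715050. Of the distal sites without neuron p300, the strongest in the proliferating CHD4 list were near Gadd45g, Ccdc85c, Trappc6b, Cdk15 and Wnk2, all at or above the 98.5th percentile and all with neuron CHD4.

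Another site of the same kind lay within 25 kb of 103 sites (18.5%, 15.3 to 21.9), against 19.9% (17.4 to 22.5) for the distal sites without neuron p300, a larger class. A CHD4 peak of any kind lay within 25 kb of 282 sites (50.5%, 46.3 to 54.8), against 43.9% (40.7 to 47.0) of those without neuron p300 and 38.4% of all CHD4 peaks. At the H3K4me3 sites this share was 52.5% (44.5 to 60.4). Linked at up to 25 kb, the sites formed 455 single sites, 43 pairs, 3 groups of 3 and 2 groups of 4. The groups of 3 lay at Ttc7b on chromosome 12, near Ccdc182 on chromosome 11 and at Flrt1 and Macrod1 on chromosome 19, where Flrt1 encodes an adhesion protein that binds FGF receptors. H3K4me3 of proliferating iMOPs lay within 10 kb of 9.32% (7.04 to 12.04) of the sites and 13.2% (11.2 to 15.5) of those without neuron p300.

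Both groups of 4 lay in Gse1, which encodes a protein found with histone deacetylase corepressor complexes. Gse1 was the nearest coding gene of 11 sites, all inside the gene body on chromosome 8, from 120273451 to 120566550. Their percentiles in the proliferating CHD4 list ran from 32.1 to 99.96. Over 9 of them lay neuron CHD4 peaks of 6200, 51600, 39450, 21150, 28650 and 48450 bp, in order along the gene. The first 2 sites had no peak in the neuron CHD4 list, and whether that list is complete there cannot be told. They were the 2 exceptions among the 558. These ran from 120273451 to 120302050, the third strongest CHD4 peak of proliferating iMOPs, and from 120303001 to 120313650. Each had a neuron p300 peak, at the 64.8th and the 98.2nd percentile of that list. At the first of them the neuron p300 peak covered 6750 bp, with its maximum 13450 bp from the CHD4 maximum. A proliferating p300 peak at the 99.8th percentile lay over that CHD4 maximum and had no counterpart in the neuron list. H3K4me3 lay at the 5′ end of Gse1 and in 2 further places in the gene in both states, away from the 11 sites.

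**Figure D5:**
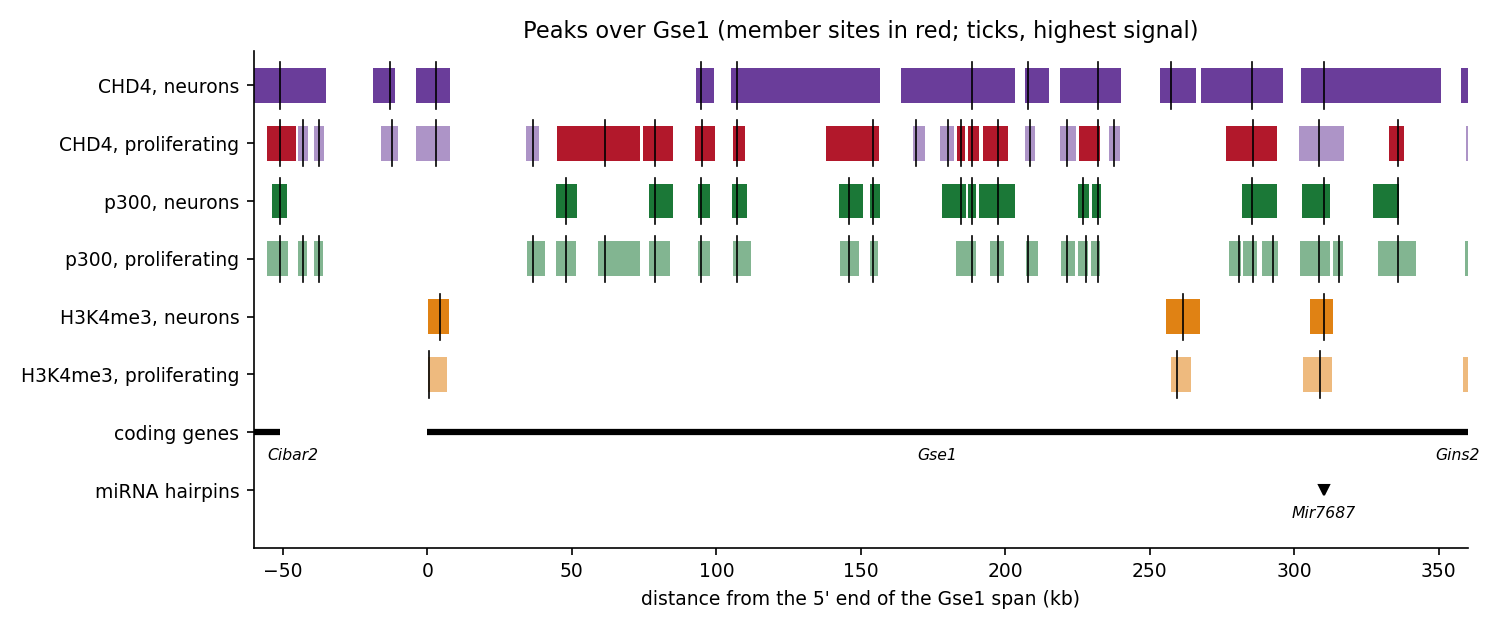
Peaks of the 6 lists (bars; ticks mark the highest signal) over Gse1 by distance in kb from the 5′ end of the gene span, with member sites in red. The first 2 red bars inside Gse1 have p300 bars but no CHD4 bar in neurons, and the neuron CHD4 bar of 51600 bp covers 2 red bars.

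The 557 sites had 448 different nearest coding genes, of which 371 had 1 site and 20 had 3 or more. After Gse1 came Sdk2, which encodes a synaptic adhesion protein of the immunoglobulin family, with 5 sites, and Rybp and Slit1 with 4 each. With 3 sites each were, among others, Auts2, a gene of brain development, Chd7, a chromatin remodeller gene needed for inner ear development, Klf13, Zmiz1, Sall3 and Ephb2. Long genes and gene-poor regions collect more sites, and the lengths were not matched.

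The strongest Chd7 site lay outside the gene, from 8952601 to 8960700 on chromosome 4, 84152 bp from the nearest gene start, at the 97.6th percentile of the proliferating CHD4 list and the 89.5th of the neuron p300 list. A second site, from 8849151 to 8852250, was inside Chd7, 16199 bp from a start. The 3 Auts2 sites were all inside that gene, and the strongest of them, from 131641851 to 131648450 on chromosome 5, stood at the 93.0th percentile of the neuron p300 list and the 98.9th of the proliferating CHD4 list. Of the 5 Sdk2 sites, 3 lay in the gene body and the strongest, from 113980601 to 113990800 on chromosome 11, reached the 95.5th percentile in the neuron p300 list and the 99.4th in the proliferating CHD4 list.

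Within a coding gene or 50 kb of it, the sites reached 776 genes, 3.55% of the 21887 coding genes. Against this share, the guidance gene lists are given by counts alone. Of 23 genes of a list of Slits, Robos, netrins, their receptors and effectors and Draxin, 3 had a site (13.04%, 2.78 to 33.6): Slit1, Draxin and Ntng1. Distal sites without neuron p300 reached 5 of the 23 (21.7%), against 7.57% of all coding genes. CHD4 peaks of any kind reached 39.1% of the list, against 34.2% of all coding genes. In this and the lists below, a gene reached within 50 kb need not be the nearest coding gene of the site. For example, the nearest was Vav3 at the Ntng1 site, Fam178b at Sema4c, Grifin at Lfng and Elfn2 at the strongest Mfng site. It was Dand5 at the Nfix site and Dnajb8 at the Gata2 site. Slit1 encodes a repellent ligand of growing axons, and its 4 sites lay within the gene on chromosome 19. The strongest, from 41682801 to 41698050, stood at the 99.8th percentile of the neuron CHD4 list, the 99.1st of the proliferating CHD4 list, the 99.6th of the neuron p300 list and the 93.1st of the proliferating p300 list. The other 3 stood at the 41.1st, 76.7th and 48.9th percentiles of the proliferating CHD4 list, and the last of them, from 41745301 to 41748050, covered a gene start. The Draxin site, from 148119151 to 148124900 on chromosome 4, overlapped this gene for a secreted guidance inhibitor and was 5750 bp wide, under a neuron CHD4 peak of 13800 bp.

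Of 31 semaphorin, plexin and neuropilin genes 4 had a site (12.9%, 3.63 to 29.8). These were the receptor genes Plxna2 and Plxnd1 and the ligand genes Sema4b and Sema4c. The Plxnd1 site, inside the gene on chromosome 6 from 115970501 to 115973400, had a CHD4 peak at the 97.9th percentile and a p300 peak at the 96.2nd in the neuron lists. In the proliferating lists it stood at the 22.2nd percentile for CHD4 and the 16.1st for p300. Of 22 Eph receptor and ephrin genes 1 had a site (4.55%, 0.115 to 22.8), the receptor gene Ephb2. All 3 Ephb2 sites lay inside the gene on chromosome 4, at the 66.6th, 45.4th and 89.9th percentiles of the proliferating CHD4 list.

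Of 18 Notch pathway genes 4 had a site (22.2%, 6.41 to 47.6), the highest share of the 18 lists. The list was rich in CHD4 as a whole: 14 of its 18 genes (77.8%) had a CHD4 peak of any kind within 50 kb, against 34.2% of all coding genes, and 2 of 18 (11.1%) had a distal site without neuron p300, against 7.57%. Among them are the receptor genes Notch1, with 2 sites, and Notch2, with 1 inside the gene, and the genes of the Fringe glycosyltransferases Lfng, with 1 site, and Mfng, with 2, which tune the response to Notch ligands. The Lfng site, from 140579101 to 140585050 on chromosome 5, lay 22291 bp from the gene at the 96.4th percentile of the proliferating CHD4 list and the 63.3rd of the neuron p300 list. The nearer Notch1 site lay inside the gene, from 26485401 to 26491450 on chromosome 2, at the 84.9th percentile of the neuron p300 list, and the other lay 27629 bp away at the 41.8th. Hes3, reached by the 31500-bp site, was the only one of 12 Hes, Hey and Id genes with a site, and the same site lay within 50 kb of Chd5, the 1 of 15 NuRD genes.

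Among the transcription factor lists, 3 of 22 genes of a list of NFI, Meis, Pbx, Pou3f, Zic, Sall and Zeb factors and Tcf4 had a site (13.6%, 2.91 to 34.9), namely Nfia, Nfix and Zeb1. Of 26 proneural and neuronal factors 2 had one, Lhx1 and Gata2, and of 18 otic progenitor factors 1, Sox9. In the list with the NFI factors, distal sites without neuron p300 reached 2 of 22 genes (9.09%). CHD4 peaks of any kind reached 68.2% of that list, against 34.2% of all coding genes. The Sox9 site, from 112816201 to 112819600 on chromosome 11, lay 28444 bp from this progenitor factor gene at the 47.3rd percentile of the neuron p300 list and the 91.1st of the proliferating CHD4 list. Near Lhx1, a site from 84528901 to 84531000 on chromosome 11 was 2100 bp wide and lay under a neuron CHD4 peak of 11850 bp. Nkd1, a feedback inhibitor of Wnt signalling, was the 1 of 21 Wnt and BMP genes, and its site from 88564851 to 88574900 on chromosome 8 stood at the 92.7th percentile of the neuron p300 list and the 99.5th of the proliferating CHD4 list.

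No site lay within 50 kb of 24 neuronal cytoskeleton and axon genes (upper bound of the interval 14.2%), 17 AP-1 and immediate early genes (19.5%), 14 FGF and EGF pathway genes (23.2%), 18 hair cell markers (18.5%), 16 mesenchyme markers (20.6%) or 14 blood and endothelium markers (23.2%). Of 16 glial markers 1 had a site, Pmp22, and of 25 ribosomal protein genes 1, Rpl13. The interval of each of these lists, like those of the other lists with 1 or 2 genes, held the background share of 3.55%. The interval of the Notch list, with its high share of genes near CHD4 of any kind, began at 6.41%, and that of the semaphorin list at 3.63%. Of the semaphorin list, 61.3% of genes had a CHD4 peak of any kind within 50 kb. Distal sites without neuron p300 reached as many genes of that list, 4 of 31 (12.9%), against 7.57% of all coding genes. With 18 lists, chosen with earlier results of these data known, these counts are a description.

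The sites were spread over all numbered chromosomes and X. Their number ran from 12 on chromosome 19 to 62 on chromosome 11, with 1 on X, 0 on Y and 1 on an unplaced sequence of chromosome 4. Chromosome 8 had the highest share of its CHD4 peaks among the sites, 48 of 299 (16.1%, 12.1 to 20.7), and 11 of these 48 were those of Gse1. Over all chromosomes the sites were 558 of the 4919 CHD4 peaks. Of the distal CHD4-p300 sites of chromosome 8, 43.6% (34.2 to 53.4) had neuron p300. This share was 47.4% (36.0 to 59.1) on chromosome 7 and 36.0% over all chromosomes.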

How the data were processed

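Peak lists of 6 CUT&Tag libraries were analysed, CHD4, p300 and H3K4me3 in iMOP-derived neurons and in proliferating iMOPs. Per the submitters' processing notes, SEACR, Bowtie2, deepTools and the build mm10 were used, with neither roles nor versions stated, and whether libraries were pooled into a list is not in the labels. The lists have 6 columns, among them the total and the highest signal, and no source used here gives how the authors scaled them. This deposited signal was used only to rank and trim peaks within a list. Coordinates mostly run in steps of 50 bp and are printed counted from 1.

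Overlaps of at least 1 bp, distances, widths and percentiles were computed with pandas 2.3.3, SciPy 1.17.1 and numpy 2.4.6 in Python 3.11.15, and figures were drawn with matplotlib 3.10.9. The code was tested on simulated peaks. Genes, starts and sequences came from RefSeq tables of GRCm38.p6, which shares the coordinates of mm10. Of 21887 coding genes, 17492 had a listed start and strand. All 351 genes of the 18 lists were found. No genome was used here, so the planned 200-base windows at the site maxima were not searched, and motifs were searched in promoters instead.

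The members and the gene lists were chosen with earlier results of these data known. Sites named were the 8 strongest by proliferating CHD4, the 5 strongest by neuron p300, the 5 widest, the 5 largest groups, up to 3 genes per list, the 3 shortest overlaps and 3 nearest non-members, and those with neuron H3K4me3 or without neuron CHD4. Each was named by its nearest coding gene. Sites over microRNAs and gene starts, and genes with several sites, were named after their values were seen, as was 1 further gene of each of 2 lists.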

Additional observations from a re-analysis of the deposited data

How the results depend on the processing

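With at least 50% of the CHD4 peak covered, 14.5% of sites were clustered. With the stronger 50% of each list there were 294 sites, of which 1.70% had neuron H3K4me3, 9.86% lay at a gene start, 38.8% outside genes and 13.9% in clusters, with a median width of 5075 bp and median percentiles of 92.5 for CHD4 and 78.9 for neuron p300. With the proliferating p300 list trimmed to the neuron length there were 328 sites, of which 0% had neuron H3K4me3, with a median width of 5050 bp and median percentiles of 92.7 for CHD4 and 66.6 for neuron p300. The share with neuron H3K4me3 was 0% by construction when sites with it were left out. Clustered sites made up 10.6% at 10 kb and 36.2% at 100 kb, and 45.2% of sites had the CHD4 and p300 maxima in the same 50 bp. Nearest genes numbered 448, and genes within 10 kb 353. Chosen after seeing the data were gene starts replaced by either end of every gene, which gave 10.4% at a start and a median distance of 23007 bp, genes with a listed start only, which gave 4.65% and 38611 bp, and other ways to count promoters, under which the CpG ratio and the share of internal starts stayed within their intervals. Of 83 values recomputed, 59 stayed close to the reported one, which means within its 95% interval for shares and medians and within 1.5 times of it for counts. The settings that trim lists use fewer peaks by construction, and for the rest the cause was not tested. No paired analysis was possible because each group holds 1 library. Depth is unknown, and a site absent from the shorter neuron p300 list may lie under its threshold.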

Other observations

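The 43 long non-coding RNA genes with a start under a site have not been named beyond Lncppara. The starts nearest to a CHD4 maximum were those of Gm11734, 5 bp away, Gm52821, 22 bp, Gm40513, 74 bp, and 5330416C01Rik, 114 bp. Their sites stood at the 82.2nd, 74.1st, 84.2nd and 98.0th percentiles of the proliferating CHD4 list. Inside Slit1, the start of the non-coding gene Gm34116 lay 707 bp from the maximum of the strongest Slit1 site. Taken over the starts of all genes, the median CpG ratio of promoters under the sites was 0.25 (0.22 to 0.30, 68 starts).

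The lowest ranks in the proliferating CHD4 list were those of a site near Mgmt, at the 2.99th percentile, and of the Mir3080 site in Tcf20, at the 10.4th. The neuron CHD4 peak of 55450 bp over the Mir3080 site also spanned a second Tcf20 site, at the 89.6th percentile. In Gse1 a site of 2700 bp at the 32.1st percentile of the proliferating CHD4 list lay under a neuron CHD4 peak 14.6 times as wide. This was the highest ratio of the 556 sites with neuron CHD4. That neuron peak also spanned other sites and proliferating CHD4 peaks that are not sites. The ratio thus sets a single proliferating peak against a neuron peak that covers several.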
